A study of Mus musculus with 24 samples.

Results

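Interferon-stimulated genes are the genes that a cell switches on when interferon, the alarm cytokine of virus infection, binds its receptor. A list of 43 of them was followed in SIM-A9 cells, a spontaneously immortalised mouse microglial cell line, by poly-A RNA sequencing. Members were chosen by gene symbol, matched from the Ensembl identifiers of the count table with GENCODE mouse names. To be tested, a member had to pass a filter on low counts. All 43 were in the table of 54838 genes, and 41 were among the 13116 genes tested. Mx1, a dynamin-like antiviral GTPase, and Zbp1, a sensor of Z-form nucleic acid, never exceeded 7 counts in a library and were not tested.

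The study asked how probes used in neuroscience act on microglia, with LPS, the bacterial lipopolysaccharide, as the inflammatory positive control. Its 24 libraries form 8 groups of 3. Control cells are labelled untreated, and the others received LPS, single-walled carbon nanotubes (SWCNT) labelled (GT)6, carboxylated SWCNT (COOH SWCNT), the calcium dye Fura-2, the dye DiBASC2, the dye Di-2-ANEPEQ, or AAV, an adeno-associated virus. Every group was the same cell line, was kept for 2 h in 270 uL of DMEM/F12 without serum, and is labelled with the same protocol, in which 30 uL of a 10-fold concentrated sample was added 2 h before RNA was extracted. What control wells were given in its place is not stated in the labels. The labels give no dose and no AAV serotype or cargo. They also do not say that replicates were separate cultures, so p-values measure the spread between these libraries, which may be technical. The libraries' index numbers run in blocks by group, so library order and treatment cannot be told apart.

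Type I interferon signals through the receptor chains IFNAR1 and IFNAR2 and the kinases JAK1 and TYK2. These activate STAT2, which joins IRF9 in a complex that binds the interferon-stimulated response element (ISRE) of target promoters. LPS reaches this pathway through TLR4 and its adaptor TRIF (Ticam1), which leads to IRF3 activation and to interferon beta (Ifnb1), while the MyD88 branch of TLR4 activates NF-kB. In microglia the same genes mark the response to virus infection and appear in ageing and in disease models.

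Total counts per library ran from 17364272 to 29259221, and replicates correlated at r of 0.992 to 0.995 across the log2 CPM of genes. CPM values are counts scaled to library size with TMM factors. The microglial identity was checked against 12 marker genes, all of which passed the filter, with a summed level of 2500 to 2760 CPM in every library. The homeostatic markers Tmem119 and P2ry12 were low, at 4.13 and 2.35 CPM in control. Markers of astrocytes, neurons, endothelial cells, fibroblasts, T cells and B cells summed to at most 0.603 CPM each. Oligodendrocyte markers summed to 3.41 to 5.80 CPM, nearly all of it Mbp (4.13 CPM in control), with Mog at 0 in control. In LPS the microglial markers Itgam and Trem2 fell by 0.17 and 0.18 on the log2 scale and Adgre1 rose by 0.31. The part of these shifts in the results was not tested. In bulk RNA, fewer cells with a transcript and less of it per cell cannot be told apart.

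The promoters of 9 members are printed first. These 9 were picked with results of these data known, so they predict nothing about the LPS calls. RefSeq windows from 250 bases before to 50 bases after the start were at hand for 35 of the 43 members (build GRCm38.p6). Mx1, Mx2, Zbp1, Rtp4, Parp14, Usp18, Dhx58 and Tap2 had none. The 9 sequences are written 5′ to 3′ on the gene's own strand, and lie within the 250 bases before the RefSeq start. Capitals mark matches on either strand to the ISRE core, which is GAAA, any 2 bases and GAAA, and in Gbp5 also to the NF-kB site, which is GGGA, any base and TTTCC. They lie at chr3:142496684-142496929 (plus strand) for Gbp5, chr3:142620413-142620631 (plus strand) for Gbp2, chr4:156200819-156201068 (minus strand) for Isg15, chr12:26456453-26456702 (minus strand) for Rsad2 and chr19:34640744-34640888 (plus strand) for Ifit1. These 5 genes were among the members called higher in LPS.
Gbp5: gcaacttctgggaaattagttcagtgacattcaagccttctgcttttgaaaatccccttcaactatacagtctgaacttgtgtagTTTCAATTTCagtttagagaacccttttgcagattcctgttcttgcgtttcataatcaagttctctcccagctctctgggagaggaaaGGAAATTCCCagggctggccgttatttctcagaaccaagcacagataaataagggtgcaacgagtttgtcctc
Gbp2: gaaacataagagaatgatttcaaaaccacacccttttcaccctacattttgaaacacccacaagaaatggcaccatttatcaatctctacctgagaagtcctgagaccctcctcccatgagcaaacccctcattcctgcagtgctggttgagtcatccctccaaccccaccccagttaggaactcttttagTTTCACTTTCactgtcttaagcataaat
Isg15: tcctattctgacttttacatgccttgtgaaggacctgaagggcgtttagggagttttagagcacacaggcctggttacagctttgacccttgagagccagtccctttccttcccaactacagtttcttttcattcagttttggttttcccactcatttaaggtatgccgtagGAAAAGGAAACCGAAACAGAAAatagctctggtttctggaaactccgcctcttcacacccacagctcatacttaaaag
Rsad2: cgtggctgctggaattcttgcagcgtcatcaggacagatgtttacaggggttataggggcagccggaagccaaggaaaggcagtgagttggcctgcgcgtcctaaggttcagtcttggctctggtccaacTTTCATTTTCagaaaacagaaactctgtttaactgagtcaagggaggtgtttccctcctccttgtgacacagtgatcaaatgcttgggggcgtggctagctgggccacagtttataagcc
Ifit1: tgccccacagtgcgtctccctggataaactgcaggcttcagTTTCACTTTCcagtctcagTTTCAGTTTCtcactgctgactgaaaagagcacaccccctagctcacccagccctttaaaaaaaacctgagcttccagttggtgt

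Isg15 carries 3 core matches that overlap one another, from base -78 to -57 before the start. Ifit1 carries 2, at -104 to -95 and -85 to -76. The NF-kB match of Gbp5 lies at -77 to -68, downstream of its ISRE match at -165 to -156. The RefSeq start of Gbp5 lies inside the longer GENCODE gene, which begins at base 142493978 of chromosome 3. The windows of Gbp2 and Gbp5 were shortened where a GENCODE exon reaches into them, and that of Ifit1 where an exon of its neighbour Ifit1bl2 does.

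The other 4 sequences are of members that were not higher in LPS. Ifit3 at chr19:34583279-34583528 (plus strand) and Ifit2 at chr19:34550444-34550693 (plus strand) stand in the same cluster on chromosome 19 as Ifit1. Stat2 lies at chr10:128270248-128270497 (plus strand) and Trim25 at chr11:88999153-88999402 (plus strand).
Ifit3: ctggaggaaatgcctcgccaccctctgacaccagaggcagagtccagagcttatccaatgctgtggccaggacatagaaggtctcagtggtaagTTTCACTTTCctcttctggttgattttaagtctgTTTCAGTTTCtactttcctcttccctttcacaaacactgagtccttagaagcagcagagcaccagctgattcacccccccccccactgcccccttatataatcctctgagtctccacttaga
Ifit2: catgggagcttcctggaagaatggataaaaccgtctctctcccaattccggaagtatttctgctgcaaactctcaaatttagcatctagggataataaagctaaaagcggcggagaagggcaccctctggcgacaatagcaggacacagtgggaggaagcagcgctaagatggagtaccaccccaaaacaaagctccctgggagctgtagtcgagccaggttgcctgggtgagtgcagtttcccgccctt
Stat2: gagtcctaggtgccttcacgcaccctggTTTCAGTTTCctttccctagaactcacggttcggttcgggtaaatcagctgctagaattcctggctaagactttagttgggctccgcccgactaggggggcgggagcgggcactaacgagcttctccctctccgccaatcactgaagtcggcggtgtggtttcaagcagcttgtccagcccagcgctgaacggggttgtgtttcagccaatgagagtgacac
Trim25: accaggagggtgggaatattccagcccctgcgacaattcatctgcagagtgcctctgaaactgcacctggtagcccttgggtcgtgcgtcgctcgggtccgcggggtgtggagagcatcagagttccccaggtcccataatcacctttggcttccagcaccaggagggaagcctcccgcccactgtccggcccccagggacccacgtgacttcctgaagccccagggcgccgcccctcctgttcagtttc

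Ifit3 holds 2 ISRE core matches, as Ifit1 does, and neither of the RefSeq windows of Ifit2 holds any. Stat2 holds 1 match at -222 to -213, and Trim25 holds none. Over all 32851 windows of the reference the core was found in 3.44%. Among members with a window it was found in 7 of the 7 that were higher in LPS, 2 of the 7 that were lower (Stat2 and Eif2ak2) and 7 of the 21 tested members that were not called. Counted by gene, 3.99% of all genes with a window and 4.88% of the tested genes higher in LPS held it. Parp14, Rtp4 and Mx2, also higher in LPS, had no window. The matches of Ifih1 (33 to 42) and Eif2ak2 (19 to 28) lie after the start, and Gbp3 holds matches in 1 of its 2 windows. The NF-kB site was in 1 of the 35 members, Gbp5. It was in 0.466% of all genes with a window and in 1.43% of the tested genes higher in LPS. The gamma-activated site (GAS) TTCNNNGAA was in 1 of the 7 higher members, 4 of the 7 lower and 6 of the 21 not called. It was in 9.55% of all genes with a window. Among tested genes it was in 9.11% of those higher in LPS, 7.94% of those lower and 7.96% of those not called. Adar holds it in 1 of its 3 windows. In Bst2 a gamma-activated site overlaps an ISRE match. A match only says that these letters are present in the window.

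**Figure D1:**
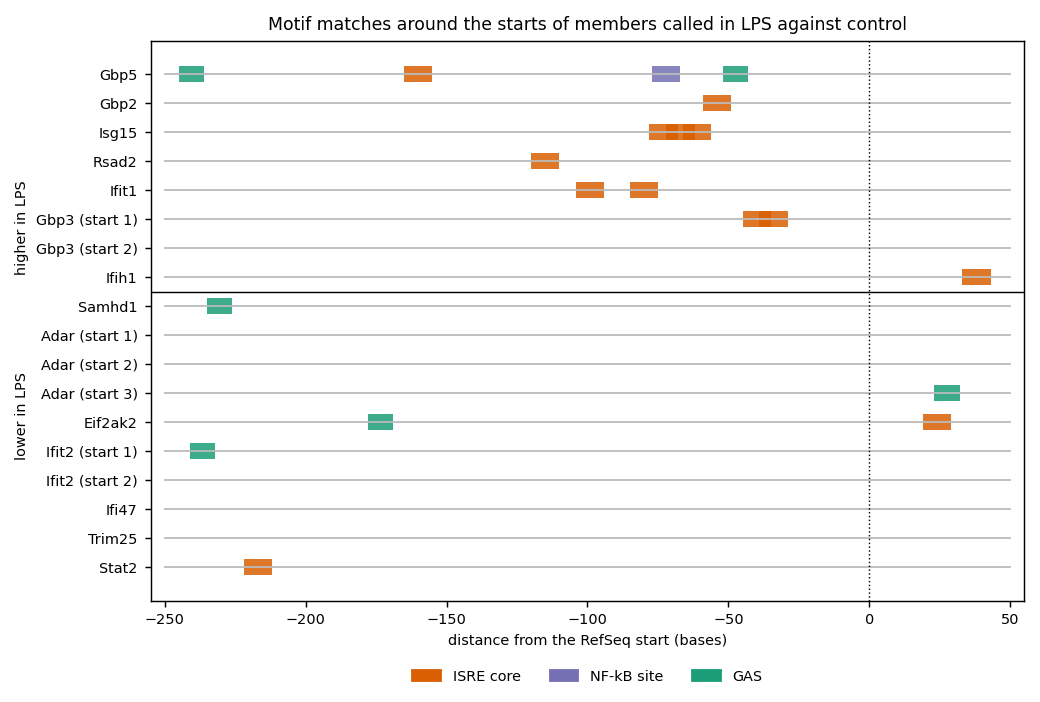
Motif matches along the RefSeq windows of members called in LPS against control. The x axis is the distance from the RefSeq start in bases, each line is one window, and blocks mark the ISRE core, the NF-kB site and the gamma-activated site (GAS). The 7 members above the dividing line, higher in LPS, each hold an ISRE core match, and below it Eif2ak2 and Stat2 do. Parp14, Rtp4 and Mx2, also higher in LPS, had no window and are not shown.

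In untreated cells the members covered a wide range of levels. Per kilobase of exon, Bst2, the tetherin that holds budding virus at the cell surface, was highest at 49.6 ± 3.4 CPM per kb (SD, n = 3). It was followed by Trim25, an E3 ubiquitin ligase that acts on RIG-I, at 29.5 ± 0.407 CPM per kb, and by Oasl1 at 24 ± 1.41 and Samhd1 at 22.1 ± 0.752 CPM per kb. Oasl1 and Samhd1 differed by less than their summed spread. Isg15, the ubiquitin-like modifier, stood at 3.65 ± 0.258 CPM per kb, and Rsad2 (viperin) at 2.02 ± 0.441. Ifit1 was at 0.501 ± 0.0366 and Gbp2 at 0.368 ± 0.0978 CPM per kb. Gbp5 was lowest at 0.0146 ± 0.00585. On the CPM scale 24 members were at or over 5 CPM in control. In LPS against control the standard errors of their log2 fold changes had a median of 0.11, compared with 0.23 for the 17 tested members below 5 CPM.

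After LPS, 10 of the 41 tested members were higher and 8 were lower than in control. These are 43.9% of the members. Of all 13116 genes 28.3% were called, 13.8% higher and 14.5% lower. The members' median log2 fold change was 0.03, beside -0.01 over all genes tested, with rises and falls side by side. Without control replicate 2 the lower count was 5. The inflammatory reference genes were far higher in the same libraries. Tnf went from 35.5 ± 1.26 to 1140 ± 53.8 CPM and Nfkbia, the NF-kB inhibitor, from 113 ± 2.71 to 731 ± 42.5 CPM. Calls are edgeR quasi-likelihood tests with a Benjamini-Hochberg adjusted p under 0.05 over all genes.

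**Figure D2:**
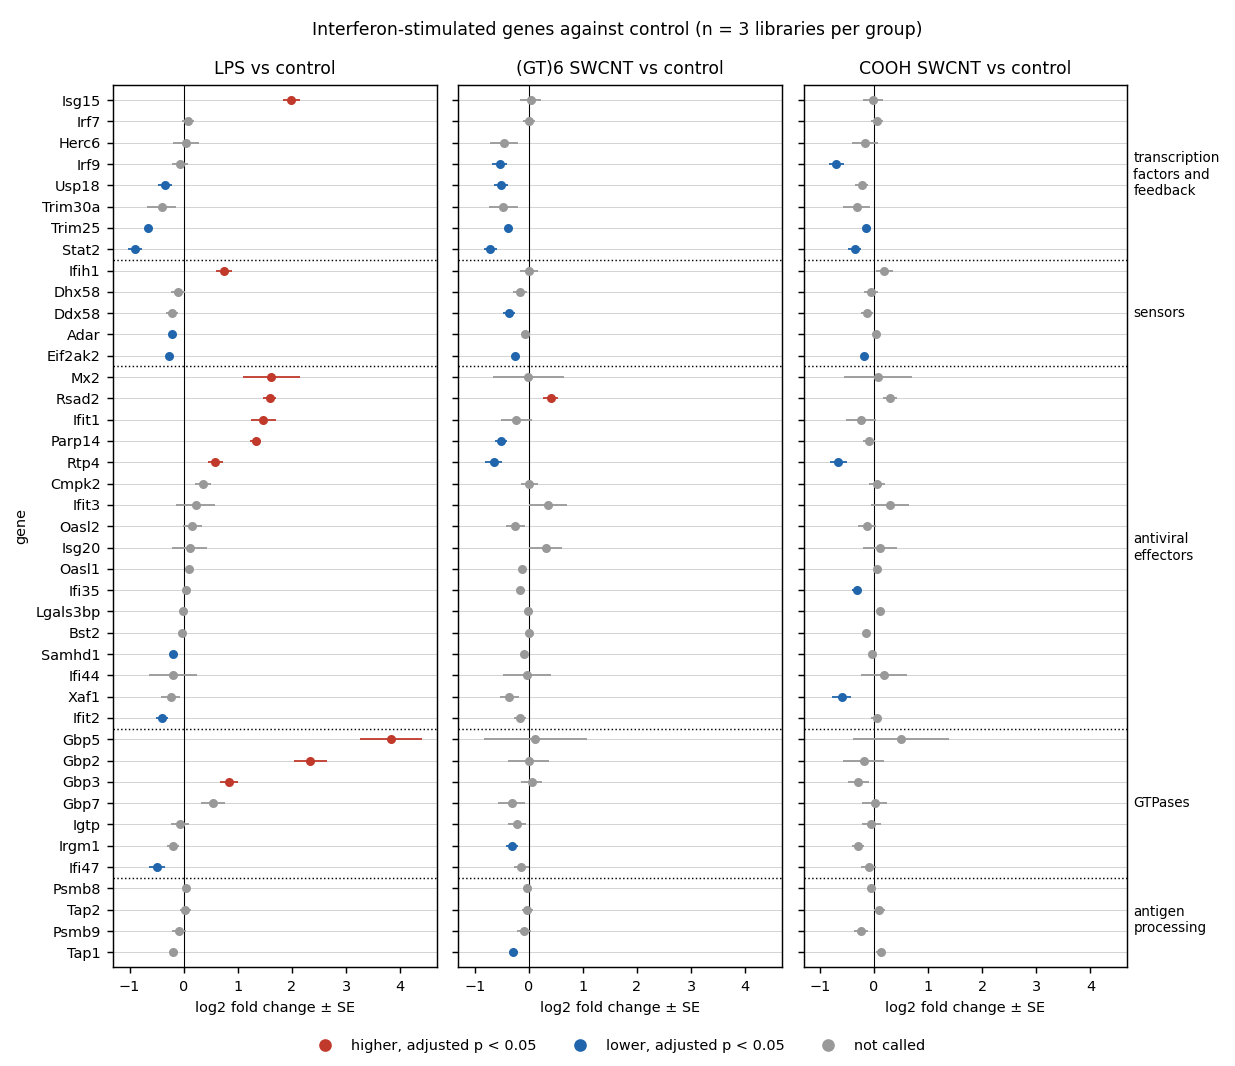
Log2 fold change ± SE of the 41 tested members against control, ordered by role, in LPS, (GT)6 SWCNT and COOH SWCNT (3 libraries per group). Red points were called higher, blue points lower and grey points not called. LPS has 10 red and 8 blue points, (GT)6 SWCNT 1 and 10, and COOH SWCNT 0 and 7.

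The guanylate-binding proteins and related GTPases, which attack the membranes of pathogens, held the steepest rises. Gbp5, a promoter of inflammasome assembly, had 2, 3 and 1 counts in the control libraries and 19, 33 and 38 in LPS. The ratio of the scaled sums is 15.0, with a 95% interval of 6.65 to 42.1 that covers counting error only. The fitted log2 fold change of 3.83 ± 0.57 (SE) rests on those few control counts. Gbp2 was at 1.21, 0.766 and 0.801 CPM in control and at 4.46, 3.86 and 5.56 CPM in LPS. No LPS library came near a control library, and the log2 fold change was 2.34 ± 0.30 (adjusted p = 5.18e-08). Gbp3 was at 2.42, 2.26 and 2.35 CPM in control and at 3.42, 4.15 and 4.96 CPM in LPS, a rise of 0.84 ± 0.17 (adjusted p = 0.000162). The groups of Gbp3 did not overlap either. Gbp7 had a value of 0.54 ± 0.23 that missed the threshold (adjusted p = 0.076). The immunity-related GTPase Ifi47 fell, from 4.34, 5.06 and 3.74 CPM to 2.66, 3.71 and 2.95 CPM (-0.50 ± 0.15, adjusted p = 0.00887). Its fall was lost without control replicate 2 or without LPS replicate 1 (adjusted p up to 0.124). Igtp and Irgm1, of the same family, were not called (-0.07 and -0.19).

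Among the transcription factors and feedback genes 1 of 8 rose and 3 fell. Isg15 was at 2.80, 2.55 and 2.94 CPM in control and at 8.97, 11 and 12.8 CPM in LPS. The lowest LPS library lay above every control library, and the log2 fold change was 1.99 ± 0.16 (adjusted p = 2.68e-13). Stat2, which forms part of the ISRE-binding complex with IRF9, was at 9.01, 10.3 and 11.7 CPM in control and at 5.38, 6.15 and 5.10 CPM in LPS. It fell by 0.90 ± 0.13 on the log2 scale (adjusted p = 3.94e-07), with no overlap. Trim25 was at 170, 172 and 167 CPM in control and at 113, 104 and 106 CPM in LPS. The groups did not overlap, and its change of -0.66 ± 0.04 had the smallest adjusted p of the list (1.32e-15). Usp18, which removes ISG15 from proteins and dampens the interferon receptor, was at 8.74, 8.64 and 9.77 CPM in control and at 6.36, 6.89 and 7.99 CPM in LPS. Its change of -0.35 ± 0.13 (adjusted p = 0.0413) was not called by DESeq2 (0.0501). The call was also lost on leaving out any control replicate or LPS replicate 1 or 2 (adjusted p up to 0.169). Irf7, the factor that amplifies interferon transcription, stood at 18.7, 17.7 and 19.7 CPM in control and at 15.9, 22.8 and 20.1 CPM in LPS, which overlap. The values of Irf7 and Irf9 were 0.08 ± 0.11 and -0.07 ± 0.14. Herc6 and Trim30a were not called at 0.04 and -0.41.

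Of the 5 tested genes grouped as sensors, which include the RNA-editing enzyme gene Adar, 1 rose and 2 fell. Ifih1 (MDA5), the receptor of long double-stranded RNA, was at 2.80, 3.11 and 2.83 CPM in control and at 4.78, 5.03 and 4.82 CPM in LPS. Both groups were tight and far apart (0.74 ± 0.15, adjusted p = 0.000172). Eif2ak2 (PKR), which halts translation on binding double-stranded RNA, went from 52.6, 55.8 and 49.9 CPM to 46.9, 45.1 and 40.2 CPM (-0.27 ± 0.06, adjusted p = 0.000791). Adar, which edits adenosines in such RNA, went from 63.4, 69.6 and 61.7 CPM to 56.9, 57.9 and 52.4 CPM (-0.22 ± 0.06, adjusted p = 0.00458). The Adar call was lost without control replicate 2 or without LPS replicate 3 (adjusted p up to 0.0896), and its exons overlap those of Chrnb2 on the other strand. Ddx58 (RIG-I) and Dhx58 (LGP2), the relatives of Ifih1, were not called at -0.22 ± 0.11 and -0.10 ± 0.13.

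Among 17 tested antiviral effectors 5 rose and 2 fell. Rsad2, which makes a chain-terminating nucleotide, was at 10.7, 8.68 and 6.89 CPM in control and at 22.3, 26.9 and 29.8 CPM in LPS (1.59 ± 0.12, adjusted p = 1.16e-13). Every LPS library was above every control library. Cmpk2, its neighbour on chromosome 12, was at 7.53, 8.30 and 6.09 CPM in control and 7.01, 10.4 and 10.5 CPM in LPS, which overlap (0.35 ± 0.15, adjusted p = 0.079). LPS replicate 1 was low for Cmpk2, and without that library the value was 0.51 (adjusted p = 0.00645). Parp14, a mono-ADP-ribosyltransferase, was at 16.1, 17.9 and 14.3 CPM in control and at 44.7, 40.4 and 37.4 CPM in LPS (1.33 ± 0.10, adjusted p = 4.32e-14). In absolute CPM it gained more than any other member that rose. Rtp4, a chaperone-like receptor transporter protein, rose from 4.34, 4.09 and 5.34 CPM to 6.47, 7.42 and 6.59 CPM (0.58 ± 0.14, adjusted p = 0.00184). Mx2 had 7, 3 and 6 counts in control and 18, 16 and 16 in LPS (1.62 ± 0.53, adjusted p = 0.0172). GENCODE lists it as a polymorphic pseudogene, and its call was lost without control replicate 2 or without LPS replicate 1 (adjusted p up to 0.129).

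The 3 Ifit genes, whose proteins bind viral RNA, had different calls although they lie in 1 cluster on chromosome 19. Ifit1 was at 1.43, 1.23 and 1.34 CPM in control and at 3.86, 3.37 and 3.83 CPM in LPS (1.47 ± 0.23, adjusted p = 3.11e-06). Ifit2 was at 10.5, 9.96 and 9.93 CPM in control and at 7.72, 8.64 and 6.69 CPM in LPS (-0.40 ± 0.11, adjusted p = 0.0054). Neither pair of groups overlapped. Without LPS replicate 3 the Ifit2 fall was not called (adjusted p = 0.0735). Ifit3 had 10, 17 and 15 counts in control and 12, 14 and 23 in LPS, and was not called at 0.22 ± 0.36. Its near-identical copy Ifit3b may share its reads. The promoters printed above hold 2 ISRE core matches each in Ifit1 and Ifit3, which was not called, and 0 in Ifit2.

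Samhd1, which hydrolyses the nucleotides that retroviruses need, was the other effector that fell. It was at 194, 206 and 206 CPM in control and at 178, 176 and 176 CPM in LPS (-0.19 ± 0.04, adjusted p = 6.07e-05). The 10 effectors not called included Bst2 (-0.03 ± 0.07), Lgals3bp (-0.01 ± 0.07), Oasl1 (0.09 ± 0.06) and Ifi35 (0.05 ± 0.08), each with an error of at most 0.08. Isg20 and Ifi44 had 47 and 26 counts at most in any library, with errors of 0.32 and 0.45. None of the 4 antigen processing genes was called. Psmb8 and Psmb9, subunits of the immunoproteasome, had values of 0.05 ± 0.05 and -0.09 ± 0.13, and the peptide transporter genes Tap1 and Tap2 of -0.19 ± 0.08 and 0.03 ± 0.10. Before adjustment 1 of the 4, Tap1, had a p under 0.05. By edgeR with upper-quartile factors Tap1 was called lower (-0.23, adjusted p = 0.0225). Of the 18 calls in LPS, 13 held in all 6 fits without 1 library and in all other settings where the gene was tested.

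The summed level of all members moved less than its parts. The 43 members summed to 905 to 926 CPM in the control libraries and to 844 to 882 CPM in LPS. Without the 5 most abundant, Samhd1, Trim25, Adar, Oasl1 and Psmb8, they summed to 349 to 357 CPM in control and 377 to 411 CPM in LPS. In (GT)6 SWCNT the sums were 803 to 826 CPM with the 5 and 303 to 326 CPM without them. In COOH SWCNT they were 857 to 886 and 321 to 338 CPM. So the LPS libraries lay below control with the abundant members and above it without them, while both SWCNT groups lay below control on each sum. Of the 5 left out, Samhd1, Trim25 and Adar were called lower in LPS, so leaving them out takes falls from the LPS sum.

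**Figure D3:**
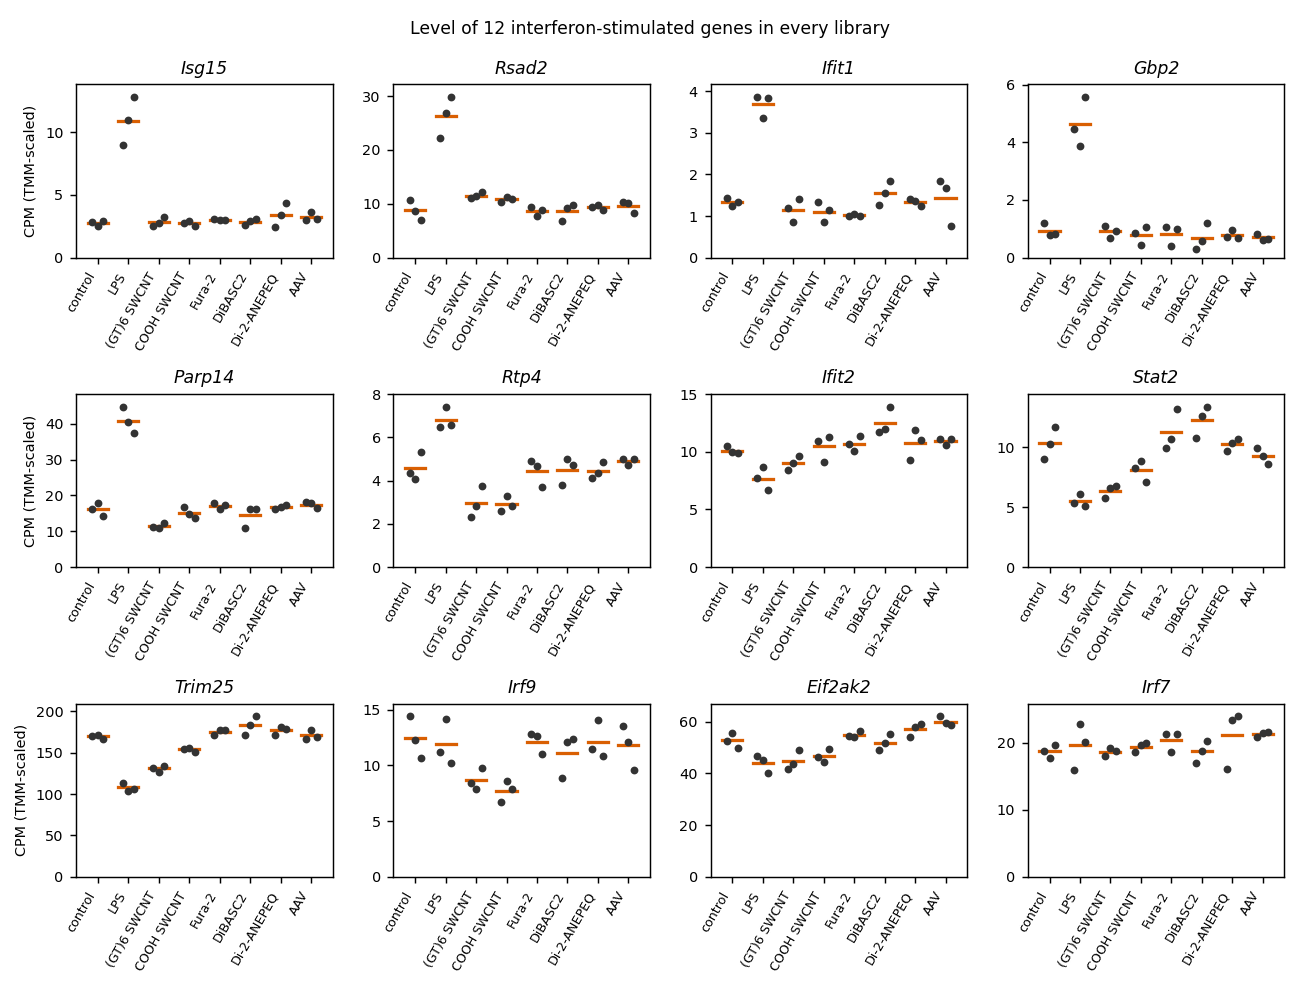
CPM (TMM-scaled) of 12 members in each of the 24 libraries, one point per library and a bar at the group mean, with every y axis starting at 0. Isg15, Rsad2, Ifit1 and Gbp2 are highest in the 3 LPS libraries. Stat2, Trim25 and Eif2ak2 lie below control in LPS and in both SWCNT groups, and Parp14 and Rtp4 lie above it in LPS and below it in (GT)6 SWCNT.

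The (GT)6 label stands for a short DNA repeat that wraps nanotubes. In (GT)6 SWCNT against control, 1 member was higher and 10 were lower of 41 (26.8%). Of all genes 20.4% were called, 9.9% higher and 10.5% lower. The members' median was -0.14, beside -0.02 over all genes. This comparison and the COOH SWCNT comparison use the same control libraries as LPS, so their values are set side by side only. The member that rose was Rsad2, at 11.1, 11.5 and 12.1 CPM. Those libraries all lay above the control values of 10.7, 8.68 and 6.89 CPM (0.40 ± 0.13, adjusted p = 0.0288). The Rsad2 call was lost without control replicate 2 or 3 or (GT)6 SWCNT replicate 2 or 3 (adjusted p up to 0.192).

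The largest falls in (GT)6 SWCNT were of Stat2, Rtp4 and Irf9. Stat2 was at 5.75, 6.62 and 6.74 CPM, below all control libraries (-0.71 ± 0.12, adjusted p = 2.64e-05). Rtp4 was at 2.34, 2.84 and 3.75 CPM, again below all control libraries (-0.65 ± 0.16, adjusted p = 0.00342). Irf9, the DNA-binding partner of STAT2, was at 14.4, 12.3 and 10.7 CPM in control and at 8.38, 7.87 and 9.73 CPM in (GT)6 SWCNT (-0.54 ± 0.14, adjusted p = 0.00539). Without (GT)6 SWCNT replicate 1 the Rtp4 call was lost (adjusted p = 0.0632), and without control replicate 1 that of Irf9 (adjusted p = 0.0669). Usp18 was at 6.00, 6.36 and 6.56 CPM (-0.52 ± 0.13), Parp14 at 11.2, 10.8 and 12.3 CPM (-0.51 ± 0.11) and Trim25 at 131, 127 and 134 CPM (-0.38 ± 0.04). These 3 genes and Stat2 kept their calls in every setting tried. Stat2, Irf9 and Usp18, which carry or dampen the signal from receptor to promoter, were all lower. These 3 were singled out after their values were seen. In their role of 8 genes, 4 were lower and 4 were not called. Isg15, of the same role, was at 2.5, 2.79 and 3.22 CPM and overlapped control (0.03 ± 0.19).

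The other falls in (GT)6 SWCNT were smaller. Ddx58 was at 11.6, 9.72 and 12.4 CPM, against 14.3, 14.6 and 13.9 CPM in control (-0.36 ± 0.11, adjusted p = 0.02). Irgm1 was at 11.5, 11.1 and 13.1 CPM (-0.31 ± 0.11, adjusted p = 0.0372), and Tap1 at 13.3, 13.2 and 14.4 CPM (-0.29 ± 0.08, adjusted p = 0.0064). Eif2ak2 was at 41.9, 43.6 and 48.9 CPM (-0.25 ± 0.06, adjusted p = 0.00255). None of these overlapped its control libraries. Their calls depended on single libraries. Ddx58 was lost without control replicate 1 or 2 or (GT)6 SWCNT replicate 2 (adjusted p up to 0.184). Irgm1 was lost without either of the same control replicates or (GT)6 SWCNT replicate 1 or 2 (up to 0.207). Tap1 was lost without control replicate 3 (0.152), and Eif2ak2 without control replicate 2 or (GT)6 SWCNT replicate 1 (up to 0.0565). By role, 4 of 8 transcription factor and feedback genes fell, 2 of 5 sensors, 2 of 17 effectors beside the 1 that rose, 1 of 7 GTPases and 1 of 4 antigen processing genes.

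In COOH SWCNT against control, 0 members were higher and 7 were lower of 41 (17.1%). Of all genes 20% were called, 9.39% higher and 10.6% lower, so the members' share was near the background. Before adjustment 9 members had a p under 0.05, and DESeq2 called 0 higher and 8 lower. Without COOH SWCNT replicate 1 edgeR called 4 lower. Irf9 fell most, to 6.68, 8.57 and 7.90 CPM (-0.70 ± 0.14, adjusted p = 0.000405). Rtp4 was at 2.62, 3.31 and 2.84 CPM (-0.66 ± 0.16, adjusted p = 0.00302). Both lay below all control libraries and kept their calls in every setting. Xaf1, a partner of the apoptosis inhibitor XIAP, was at 3.46, 3.36 and 3.63 CPM in control and at 1.82, 2.35 and 2.76 CPM in COOH SWCNT (-0.60 ± 0.18, adjusted p = 0.0151). Stat2 was at 8.31, 8.87 and 7.09 CPM (-0.36 ± 0.12, adjusted p = 0.0228).

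The remaining falls in COOH SWCNT were Ifi35 (-0.32 ± 0.08), Eif2ak2 (-0.18 ± 0.06) and Trim25 (-0.14 ± 0.04). Ifi35, whose protein responds to interferon and binds NMI, was at 21.8, 21.6 and 22.3 CPM in control and at 14.8, 19.8 and 18.5 CPM. Replicate 1 stood apart there, and without it the value of Ifi35 was -0.19 (adjusted p = 0.123). Xaf1 was lost without control replicate 3 or COOH SWCNT replicate 1 (adjusted p up to 0.139). Stat2 was lost without control replicate 2 or 3 or COOH SWCNT replicate 3 (up to 0.179), and Trim25 without control replicate 1 or COOH SWCNT replicate 3 (up to 0.0771). Eif2ak2 was lost without control replicate 1 or 2 or COOH SWCNT replicate 1 or 2 (up to 0.185). Irgm1 came close (-0.29, adjusted p = 0.0544) and was called by DESeq2 (adjusted p = 0.0496).

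**Figure D4:**
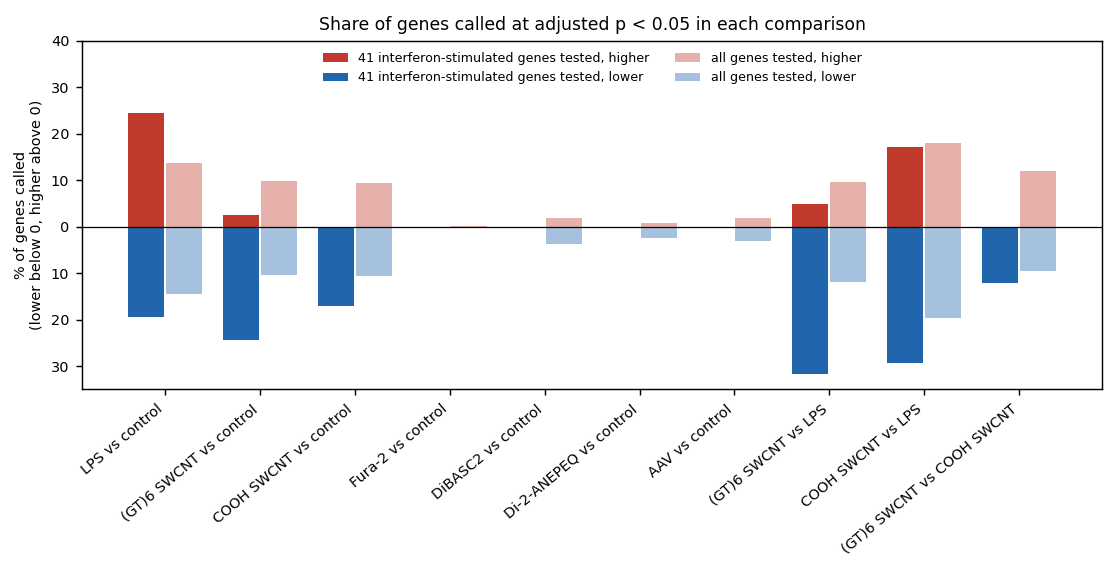
Share of the 41 tested members (dark bars) and of all 13116 tested genes (light bars) called higher (above 0) or lower (below 0) in each of the 10 comparisons, in percent. In LPS 10 members were higher and 8 lower, and in (GT)6 SWCNT against LPS 13 were lower, beside 11.9% of all genes. For AAV and the 3 dyes the dark bars are at 0.

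All 10 members that rose with LPS were lower in each nanotube group than in LPS, in comparisons that share the LPS libraries. The 10 were picked by high values in those libraries, so this direction was favoured in advance. The same share among all genes that rose with LPS was not counted. Against LPS, (GT)6 SWCNT had 2 members higher and 13 lower of 41 (36.6%), with 21.6% of all genes called, 9.63% higher and 11.9% lower. COOH SWCNT against LPS had 7 higher and 12 lower (46.3%), with 37.8% of all genes called, 18.1% higher and 19.7% lower. Isg15 in COOH SWCNT was at 2.73, 2.91 and 2.55 CPM, a difference from LPS of -2.01 ± 0.15, and that of (GT)6 SWCNT was -1.96 ± 0.15. Gbp2 was at 1.11, 0.688 and 0.937 CPM in (GT)6 SWCNT (-2.34 ± 0.29 from LPS) and at 0.835, 0.451 and 1.05 CPM in COOH SWCNT (-2.53 ± 0.29). Gbp5 had 0, 8 and 2 counts in COOH SWCNT and 3, 3 and 1 in (GT)6 SWCNT, beside 19, 33 and 38 in LPS. The LPS to (GT)6 SWCNT ratio of its scaled counts was 13.8 (95% counting interval 6.43 to 35.3). Its fitted difference from LPS in COOH SWCNT was -3.33, and it was -5.07 without COOH SWCNT replicate 2, which held 8 of the 10 counts.

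Parp14 had the smallest adjusted p of the members in both of these comparisons. COOH SWCNT libraries were at 16.7, 14.9 and 13.7 CPM, and the difference from LPS was -1.43 ± 0.10 (adjusted p = 5.34e-15), compared with -1.84 ± 0.10 for (GT)6 SWCNT (adjusted p = 1.77e-17). Ifit1 was at 1.19, 0.86 and 1.41 CPM in (GT)6 SWCNT and 1.33, 0.852 and 1.14 CPM in COOH SWCNT, lower than LPS by 1.70 ± 0.23 and 1.71 ± 0.23. Rsad2 in COOH SWCNT, at 10.3, 11.3 and 10.8 CPM, was -1.29 ± 0.11 from LPS, beside -1.20 ± 0.11 for (GT)6 SWCNT. Rtp4, Gbp3, Ifih1, Mx2 and Irf9 were also lower than LPS in both SWCNT groups. Gbp3 was at 2.30, 2.19 and 2.87 CPM in (GT)6 SWCNT and 2.20, 1.45 and 1.99 CPM in COOH SWCNT. Ifih1 was at 2.55, 3.22 and 3.05 CPM and at 3.49, 3.11 and 3.41 CPM. Mx2 had 5, 5 and 10 counts in COOH SWCNT and 2, 8 and 7 in (GT)6 SWCNT. The Mx2 differences of -1.63 and -1.54 were lost without LPS replicate 1 or (GT)6 SWCNT replicate 1 (adjusted p up to 0.164) and without COOH SWCNT replicate 1 (0.0751).

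Gbp7 (-0.86 ± 0.23) and Oasl1 (-0.20 ± 0.06) were lower than LPS in (GT)6 SWCNT, and Ifi35 (-0.36 ± 0.08) in COOH SWCNT. Oasl1, which in mouse restrains Irf7 translation, was at 60.1, 68.1 and 71.3 CPM in LPS and 58.9, 58.4 and 55.8 CPM in (GT)6 SWCNT. Leaving out 1 library ended the call for Gbp7 ((GT)6 SWCNT replicate 2, adjusted p = 0.0649), for Oasl1 ((GT)6 SWCNT replicate 3, LPS replicate 2 or 3, up to 0.142) and for Irf9 in (GT)6 SWCNT against LPS ((GT)6 SWCNT replicate 1 or 2, LPS replicate 2, up to 0.183).

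In COOH SWCNT 7 of 41 members were higher than in LPS, a share near the 18.1% of all genes. Of these 7, 6 had fallen with LPS. Both calls use the same LPS libraries, so that direction too was favoured in advance. In (GT)6 SWCNT the 2 higher than in LPS were Trim25 and Samhd1. Trim25 in COOH SWCNT was at 154, 156 and 151 CPM, 0.51 ± 0.04 above LPS (adjusted p = 1.59e-12), and in (GT)6 SWCNT 0.28 ± 0.04 above LPS (adjusted p = 3.07e-06). Its levels ran from control through COOH SWCNT and (GT)6 SWCNT to LPS without overlap between neighbouring groups. Stat2 in COOH SWCNT was 0.54 ± 0.13 above LPS (adjusted p = 0.000957). Ifit2 in COOH SWCNT, at 10.9, 9.12 and 11.3 CPM, was 0.45 ± 0.11 above LPS, and in (GT)6 SWCNT it was at 8.42, 9.07 and 9.61 CPM. Adar was 0.26 above LPS in COOH SWCNT, at 67.4, 64.4 and 68.6 CPM, and at 62.6, 60.5 and 61.1 CPM in (GT)6 SWCNT. Samhd1 was 0.16 above LPS in COOH SWCNT (200, 200 and 193 CPM) and 0.10 above it in (GT)6 SWCNT (187, 193 and 189 CPM). Tap1, which was not called in LPS against control, was 0.32 above LPS in COOH SWCNT, at 19.1, 18.1 and 17.2 CPM. In (GT)6 SWCNT against LPS, Stat2 (0.19), Ifit2 (0.23), Adar (0.14, adjusted p = 0.1), Ifi47 (0.36, adjusted p = 0.0853) and Tap1 (-0.10) were not called. Ifi47 was at 4.17, 3.76 and 4.38 CPM in COOH SWCNT (0.40 above LPS, adjusted p = 0.0288) and at 4.15, 3.91 and 3.93 CPM in (GT)6 SWCNT. The Ifi47 call was not made by DESeq2, without a low-count filter or in a fit of only the 2 groups (adjusted p up to 0.0686). It was also lost without COOH SWCNT replicate 1 or 3 or LPS replicate 1 or 3 (adjusted p up to 0.146). The Samhd1 call in (GT)6 SWCNT was lost without (GT)6 SWCNT replicate 2 or 3 or any LPS replicate (up to 0.154). It was also lost without a low-count filter and in a fit of only the 2 groups (up to 0.106). Eif2ak2 in COOH SWCNT was at 46.2, 44.6 and 49.4 CPM, and Usp18 at 8.04, 8.22 and 6.85 CPM, neither called against LPS.

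Between the nanotube types, 5 of 41 members were lower in (GT)6 SWCNT than in COOH SWCNT and 0 were higher (12.2%). Of all genes 21.4% were called, 11.9% higher and 9.48% lower, so the members' share of falls was near the background. Before adjustment 9 members had a p under 0.05, and DESeq2 called 0 higher and 5 lower. Leaving out COOH SWCNT replicate 3 gave 4 lower, and leaving out any of the other libraries gave 3. Tap1 was lower by 0.42 ± 0.08 (adjusted p = 0.000129) and Trim25 by 0.24 ± 0.04 (adjusted p = 6.66e-05). In neither gene did the groups overlap, and both calls held in every setting. Parp14 was at -0.41 ± 0.11, and lost its call without COOH SWCNT replicate 1 (adjusted p = 0.0727). Stat2 was at -0.35 ± 0.12 and Oasl1 at -0.18 ± 0.06. Each of these was lost in 5 of 6 fits without 1 library, all but the one without COOH SWCNT replicate 3 for Stat2 and COOH SWCNT replicate 1 for Oasl1 (adjusted p up to 0.215). Oasl1 was also lost with DESeq2 size factors (adjusted p = 0.0525). Irf9 and Rtp4, low in both nanotube groups, were not called between them.

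After AAV or any of the 3 dyes, edgeR called 0 members against control. Of all genes, AAV had 5% called (1.84% higher, 3.16% lower) and Fura-2 0.252% (0.0381% higher, 0.213% lower). DiBASC2 had 5.47% called (1.82% higher, 3.64% lower) and Di-2-ANEPEQ 3.08% (0.686% higher, 2.39% lower). Before adjustment 3 members had a p under 0.05 in each of these 4 comparisons. DESeq2 gave 0 calls in the dyes and 1, Eif2ak2, in AAV. Eif2ak2 was at 62.1, 59.5 and 58.8 CPM in AAV against 52.6, 55.8 and 49.9 CPM in control, without overlap (0.18 ± 0.06, adjusted p = 0.0536 by edgeR and 0.0286 by DESeq2). Isg15 was at 3.03, 3.60 and 3.05 CPM, Rsad2 at 10.3, 10.1 and 8.23 CPM and Ifit1 at 1.84, 1.68 and 0.762 CPM in AAV. The AAV libraries of Isg15 lay just above control and were not called (0.23 ± 0.18, adjusted p = 0.483), and those of Rsad2 and Ifit1 overlapped control. Without control replicate 2 Eif2ak2 was called (0.23, adjusted p = 0.0404). Over the 24 members at or above 5 CPM in control, values in AAV ran from -0.16 (Stat2) to 0.19 (Irf7), with a median SE of 0.10. The 17 tested members below 5 CPM had a median SE of 0.23.

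For the dyes, values over those 24 members in Fura-2 ran from -0.26 (Usp18) to 0.13 (Irf7), and with Di-2-ANEPEQ from -0.30 (Usp18) to 0.17 (Irf7). Usp18 was at 8.39, 6.58 and 7.51 CPM with Fura-2 and at 6.54, 6.89 and 8.69 CPM with Di-2-ANEPEQ, with an adjusted p of 0.448 and 0.198. In DiBASC2 values ran from -0.21 (Oasl2) to 0.30 (Ifit2). Ifit2 was at 11.7, 12 and 13.9 CPM there, all above the control libraries (adjusted p = 0.0696), and Trim25 at 171, 183 and 194 CPM (adjusted p = 0.125). In the same DiBASC2 libraries Tnf was at 23.2 CPM and Nfkbia at 83 CPM, lower than control by 0.62 ± 0.06 and 0.44 ± 0.05 on the log2 scale. Without DiBASC2 replicate 1 Trim25 was called higher (0.15, adjusted p = 0.0324), and without Di-2-ANEPEQ replicate 1 Irf7 was (0.33, adjusted p = 0.0445).

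The genes that make and receive interferon were read from a list of 28, all tested. In LPS 15 were higher and 4 lower (67.9%, beside 28.3% of all genes). The 3 highest were Ifnb1, Socs3 and Irf1. Ifnb1 had 10, 9 and 14 counts in the LPS libraries and 0, 0 and 1 in control, a ratio of 33.1 with a 95% counting interval of 5.54 to 1350. In the other groups it had 1, 0 and 3 counts in (GT)6 SWCNT, 0, 1 and 0 with Di-2-ANEPEQ, 2, 1 and 0 with AAV, 2, 0 and 0 with DiBASC2, and 0 in every COOH SWCNT and Fura-2 library. Socs3, a feedback inhibitor of JAK signalling, went from 6.54, 5.62 and 7.21 CPM to 123, 135 and 140 CPM (4.37 ± 0.08). Irf1, a factor that binds ISRE-like sites, went from 28.5, 32 and 31.7 CPM to 131, 134 and 148 CPM (2.16 ± 0.05). The lowest were Tlr4 (-0.87 ± 0.07), Mavs, the adaptor of the RNA sensors (-0.52 ± 0.07), and Irf2 (-0.30 ± 0.07). Ifnar2 was higher (0.33 ± 0.06) and Ifnar1 was not called (0.11 ± 0.04, adjusted p = 0.0574).

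In (GT)6 SWCNT 5 of the 28 were higher and 6 lower, and in COOH SWCNT 4 were higher and 1 lower, beside 20.4% and 20% of all genes called. The receptor genes Ifnar1 and Ifnar2 were lower in (GT)6 SWCNT (-0.19 ± 0.04 and -0.17 ± 0.06) and not called in COOH SWCNT (0.07 and 0.02). Tlr4 was lower in each (-0.45 ± 0.07 and -0.32 ± 0.06). Ticam1, singled out after its values were seen, was at 15.9, 18.2 and 21.2 CPM in control, 35.2, 39.4 and 39.3 CPM in LPS, 39.1, 36.4 and 33 CPM in (GT)6 SWCNT and 26.5, 25.1 and 27.2 CPM in COOH SWCNT. Its rises were 1.04 ± 0.08, 0.98 ± 0.08 and 0.51 ± 0.08. In Di-2-ANEPEQ and in Fura-2 the list had 0 calls by edgeR, each with 2 genes at a p under 0.05 before adjustment. In DiBASC2 and in AAV it had 1 call, the interferon gamma receptor gene Ifngr2, lower by 0.17 and 0.16 and named here after its values were seen. That is 3.57% of the list in each, below the 5.47% and 5% of all genes called in these comparisons.

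**Figure D5:**
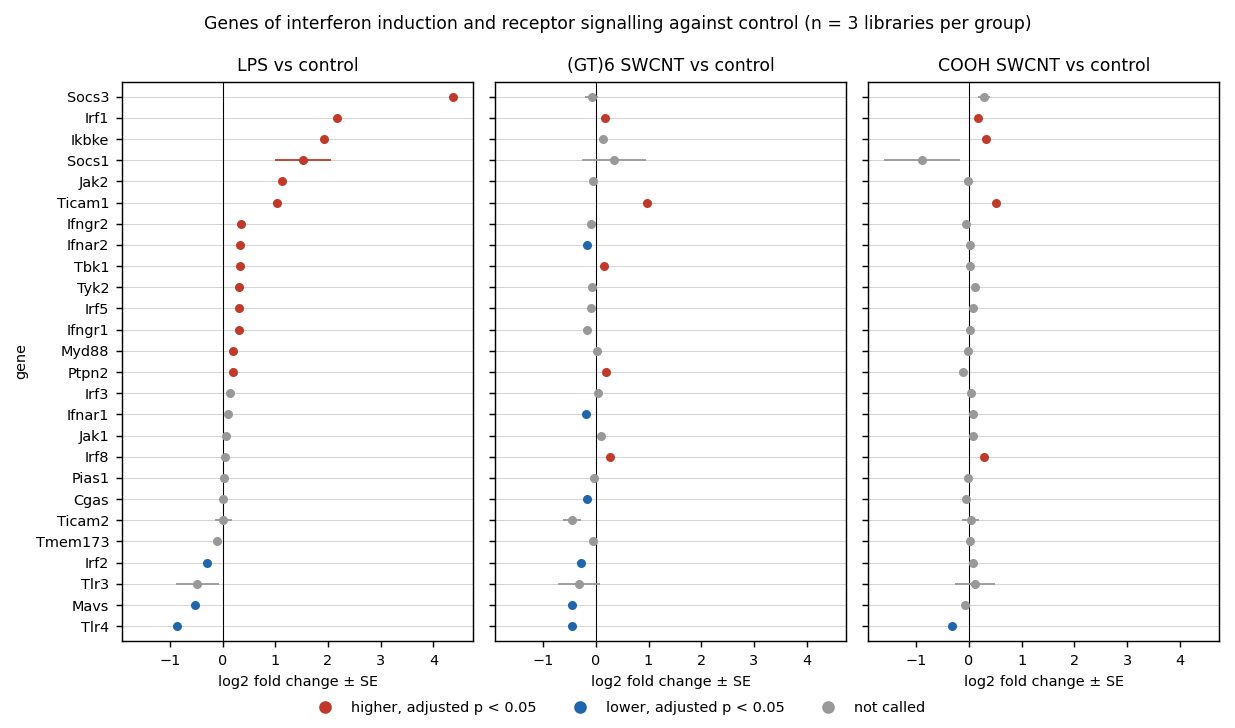
Log2 fold change ± SE against control of 26 of the 28 genes of interferon induction and receptor signalling, in LPS, (GT)6 SWCNT and COOH SWCNT (3 libraries per group). Ifnb1 is left out because control held 1 count, and 1 other gene is not shown. Socs3 at 4.37 and Irf1 at 2.16 lead in LPS, and Ticam1 is called higher in all 3 panels.

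A further list of 66 interferon-stimulated genes that are not among the 43 had 51 tested genes. In LPS 19 were higher and 4 lower (45.1%), in (GT)6 SWCNT 3 higher and 11 lower (27.5%), and in COOH SWCNT 4 higher and 7 lower (21.6%). The corresponding background shares were 28.3%, 20.4% and 20%. The 3 highest in LPS were Cxcl10, a T cell attractant, Slfn2 and Ccl5. Cxcl10 was at 5.66, 6.17 and 4.97 CPM in control and at 171, 183 and 197 CPM in LPS (5.03 ± 0.08). It also rose in (GT)6 SWCNT, to 17.5, 18.7 and 16.0 CPM (1.63 ± 0.10), and in COOH SWCNT, to 11.5, 11.2 and 13.7 CPM (1.11 ± 0.11). Slfn2 was higher in LPS by 2.13 ± 0.06 and Ccl5 by 1.33 ± 0.15. The lowest were Pml, a nuclear body scaffold (-0.75 ± 0.07), and the oligoadenylate synthetases Oas1b (-0.72 ± 0.27) and Oas2 (-0.36 ± 0.14).

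The pattern of Parp14, higher in LPS and lower in (GT)6 SWCNT, was shared by 3 genes of the further list, which were singled out after their values were seen. How many of all genes have both calls was not counted. Over all 13116 genes 13.8% were higher in LPS and 10.5% lower in (GT)6 SWCNT. Dtx3l, the partner ubiquitin ligase of PARP9, was at 26.3, 29.8 and 29.5 CPM in control, 35.5, 36.9 and 36 CPM in LPS and 18.5, 18.4 and 20.9 CPM in (GT)6 SWCNT, with no overlap. Its values were 0.34 ± 0.07 and -0.58 ± 0.07. Parp9 had values of 0.32 ± 0.07 in LPS and -0.21 ± 0.07 in (GT)6 SWCNT, and Znfx1, an RNA helicase-like sensor, of 0.49 ± 0.08 and -0.48 ± 0.08. In COOH SWCNT Parp14, Dtx3l and Parp9 were not called, and Znfx1 was lower (-0.22 ± 0.08, adjusted p = 0.0408). Among the 43 themselves, Parp14 and Rtp4 were the members called higher in LPS and lower in (GT)6 SWCNT, and Rtp4 was also lower in COOH SWCNT. The direct differences from LPS are given above for Parp14. For Rtp4 they were -1.23 ± 0.15 in (GT)6 SWCNT and -1.24 ± 0.15 in COOH SWCNT. Both genes were picked by their calls in these same libraries, so these differences add no separate support.

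Exon overlap limits some of these values. For overlap on the other strand this depends on the strand setting of the counting, which is not given in the sources used here. In GENCODE M21, 19 of the 43 members share exon bases with another gene, 13 of them on the other strand. Among the called members these include Parp14 (chr16:35832874-35871544, minus strand), Rtp4, Irf9, Gbp2, Ifi47, Adar, Eif2ak2, Usp18, Tap1, Ifi35, Oasl1 and Gbp7. Parp14, Rtp4, Irf9, Ifi47 and Gbp7 overlap a gene on their own strand, which no strand setting separates. Parp14 shares 110 of its 9306 exon bases and Gbp2 24 of 2516. Isg15 (chr4:156199424-156200818, minus strand), Rsad2 (chr12:26442746-26456452, minus strand), Stat2 (chr10:128270559-128292849, plus strand) and Trim25 (chr11:88999376-89020293, plus strand) share none.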

How the data were processed

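RNA of 24 SIM-A9 libraries was measured by poly-A sequencing. The authors deposited raw counts per Ensembl gene, 1 column per library, and STAR 2.5.4b and build GRCm38.p6 are named per the submitters' processing notes. The counting tool, strand setting and annotation release are not given in the sources used here. Groups were taken from the labels, and the name DiBASC2 from the titles, since the treatment labels spell it in 3 ways. Of 54838 identifiers 54809 matched GENCODE mouse names and 29 did not.

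Counts were filtered with filterByExpr (minimum count 10), scaled by TMM and fitted over all 24 libraries with edgeR 4.0.16 (R 4.3.3, limma 3.58.1) by its quasi-likelihood test with 16 residual degrees of freedom. P-values were Benjamini-Hochberg adjusted over all 13116 genes, and a gene was called at an adjusted p under 0.05. The comparisons numbered 10. Standard errors are the log2 fold change divided by the root of F. The biological coefficient of variation was 4.12%. Total counts of 17364272 to 29259221 per library set the precision, and intervals on counts cover counting error only. The scripts were tested on simulated data. Alternatives were DESeq2 1.42.0, other scaling factors, other filters, a replicate block, fits of 2 groups and leaving out each library.

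The members and lists were chosen with earlier results of these data known. Values per library are given for the 10 highest and 10 lowest members called in LPS and for the 3 highest and 3 lowest called in each other comparison. From the other lists the 3 highest and 3 lowest in LPS are named, with Ifnb1, Ifnar1, Ifnar2 and Tlr4. A few values are not reported here. Promoter windows are from RefSeq, and motifs were searched on both strands.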

Additional observations from a re-analysis of the deposited data

How the results depend on the processing

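Of the 75 member calls in 6 comparisons, 48 held in every setting where the gene was tested and 0 changed direction. With a mean of at least 50 counts, which leaves fewer members tested, 6 were higher in LPS. Without a low-count filter 1 was higher in COOH SWCNT (Rsad2), 1 in AAV and 1 in (GT)6 SWCNT against LPS. A fit of only the 2 groups gave 1 higher in AAV and 1 in (GT)6 SWCNT against LPS. DESeq2 size factors and the DESeq2 test each gave 1 higher in AAV. The AAV member was Eif2ak2 in each of these 4 settings. Upper-quartile factors gave 2 higher in DiBASC2 (Trim25 and Ifit2). The cause of these shifts was not tested. Leaving out 1 library gave 5 to 8 members lower in LPS, 4 to 7 lower and 0 to 1 higher in COOH SWCNT, and 0 to 1 higher in (GT)6 SWCNT, DiBASC2, Di-2-ANEPEQ and AAV. It gave 1 to 2 higher in (GT)6 SWCNT against LPS, and 0 to 1 higher and 3 to 4 lower in (GT)6 SWCNT against COOH SWCNT. Changing the scaling moved the median of all genes to between -0.05 and 0.062. The replicate numbers did not pair the libraries, since deviations of same-numbered libraries correlated at -0.104 to 0.07. With the replicate block, 10 members were higher and 8 lower in LPS, 1 and 9 in (GT)6 SWCNT, 0 and 7 in COOH SWCNT, 2 and 14 in (GT)6 SWCNT against LPS, 7 and 12 in COOH SWCNT against LPS, and 0 and 5 between the nanotubes. Irgm1 in (GT)6 SWCNT lost its call under the block (adjusted p = 0.0535). Depth limits the 17 tested members below 5 CPM in control, whose errors reach 1.01.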
